A study of Mus musculus with 7 samples.

Results

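Myosin light chains and the kinases that phosphorylate them were followed in the tibialis anterior (TA), a fast muscle at the shin, of mice without fast myosin binding protein-C (fMyBP-C). The genes were chosen by symbol, 9 of the 12239 genes in the table: the fast fibre light chains Mylpf and Myl1, the slow fibre light chains Myl3 and Myl6b, the non-muscle light chains Myl6, Myl12a and Myl12b, and the kinases Mylk2 and Mylk4. They were chosen with earlier results of this genotype contrast known, so their differences are given as a description, with standard errors (SE) and without p-values. The TA muscles came from male FVBN mice aged 5 to 6 months, and each library was one sample. The 4 wild-type (WT) libraries carried an intact Mybpc2 gene, and the 3 C2-/- libraries carried an allele in which a Neo cassette between LoxP sites stands in place of exons 2 to 22 of Mybpc2. The deletion is not limited to 1 cell type or age. The labels do not say which animals were littermates, so the spread between libraries may hold both animal and technical variation.

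Each sarcomeric myosin is a pair of heavy chains, and each heavy chain binds an essential and a regulatory light chain along its lever arm. Fast fibres use the products of Myl1 (essential) and Mylpf (regulatory), while slow fibres use Myl3 with Myl2. Calcium released at contraction binds calmodulin, which turns on the skeletal muscle light chain kinase Mylk2. This enzyme phosphorylates the regulatory light chain near its amino end and raises the force of fast fibres at a given calcium level. Myosin phosphatase reverses the reaction. MyBP-C binds the thick filament and also governs how available myosin heads are to actin, and the study deleted its fast form to ask what it does in fast muscle.

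Values are log2 CPM (counts per 1e6 reads), the scale on which the table was deposited. The libraries were of unequal depth, with 4683853 to 15464499 reads in WT and 2613277 to 4917936 in C2-/-, and among the WT libraries replicate 4 alone was as shallow as those of the knockouts. Mybpc2 stood between 12.41 and 12.85 in WT and between -0.47 and 1.67 in C2-/-, in accord with the labels. Past the threshold means an adjusted p under 0.05 in limma and a fold change over 1.5, and 5528 genes met it. Across genes, the genotype difference went with the GC content of the transcript (Spearman rank correlation -0.68 over 12176 genes, which share the same libraries and are not independent). After each library was corrected for GC content, 2508 genes were past the threshold, and 59.6% of them were higher in C2-/- against 44.7% without the correction. The median difference of all genes was -0.14 on the log2 scale, and 0.02 after the correction. GC-corrected values are therefore given beside the genotype differences and the ratios between genes. The shares, level order and likeness between genes are given on the deposited values only. Bulk RNA cannot tell fewer cells of a type from less RNA per cell.

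Of the 9 genes, 4 were past the threshold, all lower in C2-/-. Among all genes tested, 45.2% were past it in either direction, 25% as lower in C2-/- and 20.2% as higher. The same 4 genes, Mylpf, Myl6b, Myl6 and Mylk2, were those whose C2-/- values all lay below all WT values, and 49.3% of all genes had groups that did not overlap. The median log2 difference of the 9 genes was -0.94, and 0.14 after GC correction. Each group of genes, fast, slow, non-muscle and kinase, held 1 gene past the threshold. Nothing is read from this, since the share was near the 45.2% of all genes. After GC correction none of these 4 genes was past it.

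**Figure D1:**
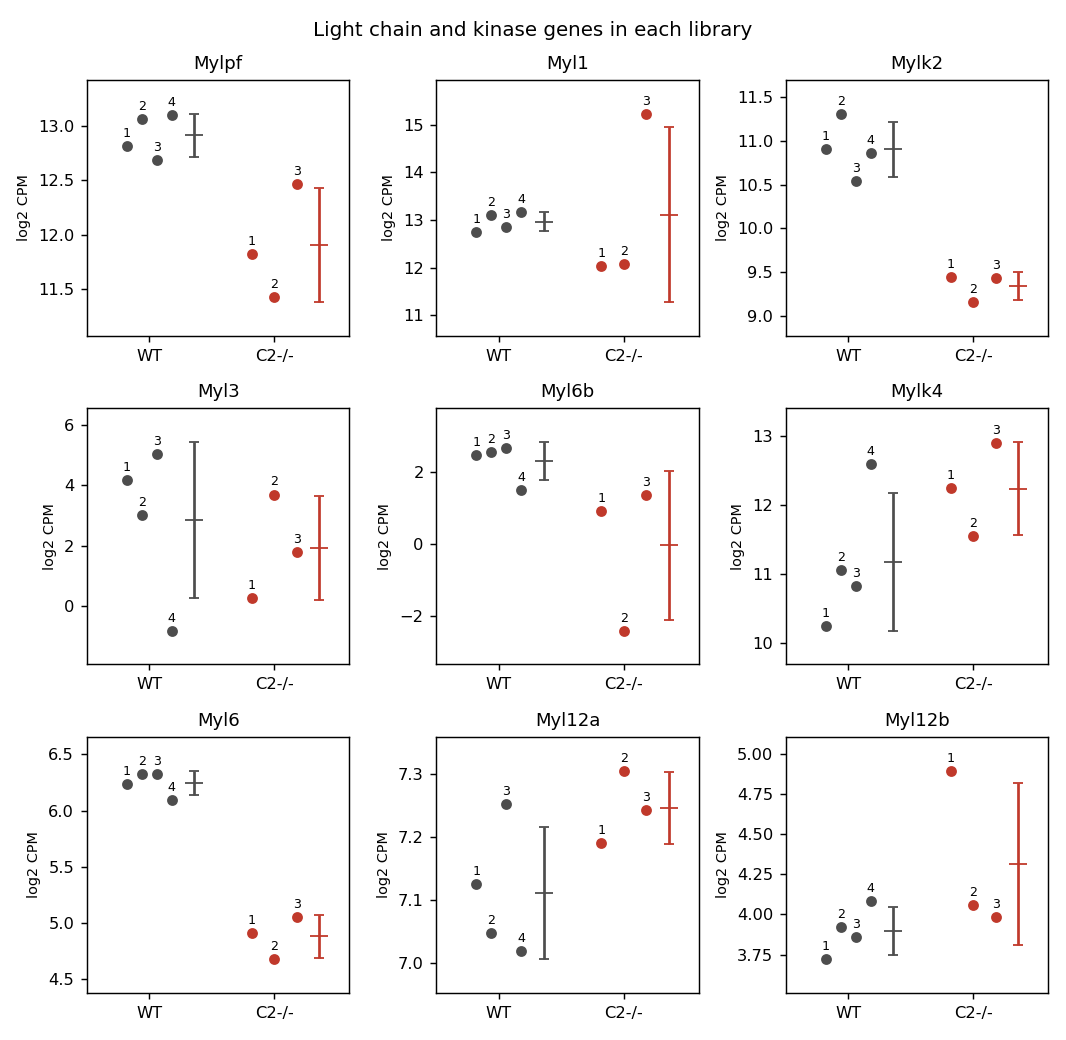
Log2 CPM of the 9 genes in each library, WT in grey and C2-/- in red, with the replicate number above each point and the mean ± SD beside each group (vertical scales differ between panels). Mylk2 and Myl6 lie lower in all 3 C2-/- libraries with a gap to WT, while Myl1 shows 2 C2-/- libraries below WT and replicate 3 at 15.23, above every WT library.

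Mylpf encodes the fast skeletal regulatory light chain, the substrate of Mylk2, and lies on chromosome 7 (GRCm38, chr7:127208890-127214298, plus strand). It was measured at 12.81, 13.06, 12.69 and 13.10 in WT and at 11.83, 11.43 and 12.47 in C2-/-. Every C2-/- library lay below every WT library, with replicate 3 the closest to WT. The log2 difference was -1.01 (SE 0.27), so that WT held 2.01 times the C2-/- level. It ranged from -1.29 to -0.77 when each library was left out in turn and was -1.19 against WT replicate 4 alone. After GC correction it was -0.39 (SE 0.28) and the groups overlapped, at 12.34 to 13.01 in WT and 11.93 to 12.87 in C2-/-.

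Myl1 encodes the fast skeletal essential light chains, made in a longer and a shorter form from alternative promoters, and lies on chromosome 1 (chr1:66924295-66945404, minus strand). The WT libraries held Myl1 at 12.74, 13.10, 12.84 and 13.18, and the C2-/- libraries at 12.02, 12.08 and 15.23. C2-/- replicates 1 and 2 lay below all WT libraries, while replicate 3 lay above all of them, 4.15 times the highest WT value. The mean difference of 0.15 (SE 0.66) therefore described no C2-/- library, and without replicate 3 it was -0.91 and past the threshold. After GC correction the difference was 0.14 (SE 0.66), and -0.90 when C2-/- replicate 3 was also left out. In replicate 3, Myl1 took 185652 reads, 3.78% of the library, whereas it took 0.702% to 0.868% in WT and 0.440% and 0.443% in C2-/- replicates 1 and 2. It was the gene of rank 2 by level in that library, against ranks 12 to 16 in WT and 19 to 21 in C2-/- replicates 1 and 2.

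The Myl1 value of C2-/- replicate 3 stood 3.15 log2 units above the nearer of the other C2-/- libraries. Of all genes, 31 had a gap at least as large, but among the 81 genes whose mean log2 value reached 10 Myl1 was the only one. The next largest gap among these was 0.71, for the fast troponin gene Tnnc2. GC correction left the value at 15.20, against 12.73 to 13.21 in WT. Of the 50-base stretches of Myl1 transcripts, 11.7% also occurred in the processed pseudogene Mylf-ps, which has no row in the table. How the counting treated reads that match more than 1 place was not given in the sources used here.

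Within a library the ratio of the fast pair does not depend on scaling. On a log2 scale per kilobase of transcript, Myl1 minus Mylpf was -0.57, -0.46, -0.34 and -0.42 in WT and -0.30, 0.16 and 2.27 in C2-/-. On these values the ratio was above WT in every C2-/- library, narrowly in replicate 1. On GC-corrected values it was -0.29 to 0.0014 in WT and -0.52, -0.27 and 1.83 in C2-/-, so replicate 1 lay below WT, replicate 2 within the WT range, and replicate 3 alone lay above it. Myh4, the heavy chain of type IIb fibres, was at 15.40 to 15.90 in WT and 15.25 to 15.47 in C2-/-. Mylpf minus Myh4 was 0.14 to 0.62 in WT and -0.85 to -0.03 in C2-/-, with no overlap. The GC-corrected ratio was nearly the same, at 0.16 to 0.63 in WT and -0.88 to -0.05 in C2-/-. Myl1 minus Myh4 was -0.32 to 0.20 in WT and -0.78, -0.70 and 2.24 in C2-/-, and with GC correction C2-/- replicates 1 and 2 again lay below WT and replicate 3 above it.

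Mylpf was not alone among fibre genes in lying lower on the deposited values. The 9 skeletal muscle fibre markers summed to 195354 to 228422 CPM in WT and to 98504 to 125105 CPM in C2-/-, and 5 of them were past the threshold as lower, against 25% of all genes. The differences of those 5 were -2.02 to -0.92, and -1.39 to 0.15 after GC correction, while the other 4 went from -0.55 to -0.21 on the deposited values to 0.40 to 0.68. The 7 fibroblast markers summed to 550 to 966 CPM in WT and 1901 to 2469 CPM in C2-/-, and 6 of them were past the threshold as higher, against 20.2% of all genes. The differences of those 6 were 0.82 to 1.94, and 0.54 to 3.07 after GC correction, and Fbln1, not past it, was at -0.58 and 0.40. The part of these shifts in the light chain values was not tested.

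Myl3 encodes the essential light chain of slow fibres and of the ventricle, on chromosome 9 (chr9:110741861-110769798, plus strand). Its level was 4.17, 3.02, 5.03 and -0.81 in WT and 0.27, 3.69 and 1.77 in C2-/-. The groups overlapped, and the lowest value of all was in WT replicate 4, which held 2 reads. C2-/- differed from WT by -0.94 (SE 1.26) on the log2 scale. It was -2.16 without WT replicate 4 and -0.12 without C2-/- replicate 1, and it turned to 2.72 against WT replicate 4 alone. It was 0.15 (SE 1.25) after GC correction. Of its exonic bases, 4.6% overlap the gene Pth1r on the opposite strand, which has no row in the table.

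Myl6b encodes an essential light chain of slow skeletal muscle that non-muscle cells also make, on chromosome 10 (chr10:128494157-128498685, minus strand). It was measured at 2.46, 2.56, 2.67 and 1.51 in WT and at 0.92, -2.42 and 1.37 in C2-/-. All C2-/- libraries lay below all WT libraries, and they held 5, 0 and 12 reads. The log2 difference was -2.34 (SE 0.86). It was -1.15 without C2-/- replicate 2, the library with 0 reads, and was then not past the threshold. The call was also lost without WT replicate 1, 2 or 3. Its transcript has 59.8% GC, the highest of the 9 genes, and the GC-corrected difference was -0.68 (SE 0.75) with overlapping groups.

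Slow fibre RNA was scarce in these muscles. Of the 8 slow fibre markers 6 were in the table, and none was past the threshold, against 45.2% of all genes. They summed to 71.0 to 112 CPM in WT and 78.8 to 103 CPM in C2-/-. The sum was mainly that of Atp2a2, at 5.38 to 6.10 over all libraries, and Tpm3, at 4.09 to 5.42, and says little of the other markers. Myh7, the slow heavy chain, had no reads in any C2-/- library or in WT replicate 4. Its difference was -2.27, and -1.06 after GC correction, neither past the threshold. Myh7 was past it as lower without WT replicate 4 (-3.16), under voom (-2.65), library weights (-3.10) and the replicate block (-3.16). Myl2, the slow regulatory light chain, was not analysed here.

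Myl3 followed the heavy chains of oxidative fast fibres from library to library. Of 3790 genes whose mean log2 value reached 5, those most like Myl3 over the 7 libraries were Ddx39b (Pearson r = 0.97), Myh2 (0.97) and Myh1 (0.96). Myh2, the type IIa heavy chain, stood at 9.60, 8.37, 9.59 and 6.45 in WT and 7.31, 9.10 and 8.50 in C2-/-. Myh1, the type IIx heavy chain, stood at 13.22, 12.68, 13.28 and 11.85 in WT and 12.18, 12.87 and 12.11 in C2-/-. All 3 were lowest in WT replicate 4 and highest in C2-/- replicate 2 within their groups. These points share their libraries and depth, and the likeness is a description.

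**Figure D2:**
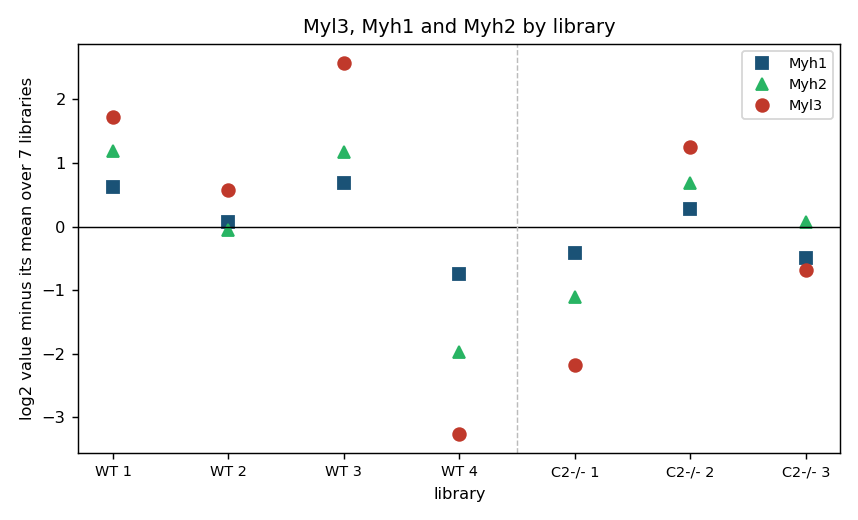
Log2 value of Myl3, Myh1 and Myh2 in each library, centred on the gene's own 7-library mean, with a dashed line between WT and C2-/-. The 3 genes share their lowest WT library and their highest C2-/- library, and WT 4 is the lowest library for Myl3, at -0.81 log2 CPM, and for both heavy chains.

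Myl6 encodes the essential light chain of non-muscle and smooth muscle myosin and lies beside Myl6b on chromosome 10 (chr10:128490860-128494145, minus strand). It was measured at 6.24, 6.32, 6.33 and 6.10 in WT and at 4.91, 4.68 and 5.05 in C2-/-. The groups were far apart relative to their spread, with an SD of 0.11 in WT and 0.19 in C2-/-. The log2 difference was -1.36 (SE 0.18), 2.57 times higher in WT, and stayed between -1.45 and -1.26 when each library was left out. It was -1.21 against WT replicate 4 alone. After GC correction the difference was -0.50 (SE 0.17), not past the threshold, although the C2-/- values of 5.16 to 5.59 still lay below the WT values of 5.82 to 5.95. Of its 50-base stretches, 8.38% occurred in other genes, chiefly processed pseudogenes with no row in the table.

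Myl12a and Myl12b encode the regulatory light chains of non-muscle myosin and lie next to each other on chromosome 17 (Myl12a chr17:70993656-71002878, Myl12b chr17:70973133-70990890, both on the minus strand). Their coding sequences of 519 bases differ at 18 positions, are 96.5% identical and share a run of 105 bases. The first 90 coding bases are shown because they carry the amino end that the kinases act on, with the bases that differ between Myl12a and Myl12b in capitals, and with the start of the Mylpf coding sequence for comparison. They were read from the GENCODE transcripts of GRCm38.
Mylpf: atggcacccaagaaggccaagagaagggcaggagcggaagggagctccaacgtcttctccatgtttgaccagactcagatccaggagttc
Myl12a: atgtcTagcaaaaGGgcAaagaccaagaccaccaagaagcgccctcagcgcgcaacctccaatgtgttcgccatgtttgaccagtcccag
Myl12b: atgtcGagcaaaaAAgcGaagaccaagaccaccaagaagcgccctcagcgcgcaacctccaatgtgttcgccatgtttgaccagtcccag
Over the whole coding sequence, 66.0% of the aligned bases of Mylpf were identical in Myl12a and 64.9% in Myl12b. Of the 50-base stretches, 16.2% of those of Myl12a also occurred in Myl12b, so reads can be split between the pair and their separate values are uncertain.

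Myl12a was measured at 7.12, 7.05, 7.25 and 7.02 in WT and at 7.19, 7.31 and 7.24 in C2-/-. The deposited values overlapped and spanned 0.29 log2 units over all libraries, the narrowest range of the 9 genes. The log2 difference was 0.14 (SE 0.14), turned to -0.06 under quantile normalization and was 0.37 (SE 0.14) after GC correction, where the C2-/- values of 7.22 to 7.54 all lay above the WT values of 6.92 to 7.11. Of its exonic bases 13.8% overlap transcripts named Myl12b on the same strand and 6.2% overlap Myom1 on the opposite strand, and whether counting used strand was not given in the sources used here.

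Myl12b was measured at 3.72, 3.92, 3.86 and 4.08 in WT and at 4.90, 4.06 and 3.98 in C2-/-. Replicate 1 of C2-/- lay above all WT libraries, while the other C2-/- values lay within the WT range. The log2 difference was 0.42 (SE 0.29), and 0.13 without C2-/- replicate 1. It was 0.97 (SE 0.26) after GC correction, and Myl12b was then the only one of the 9 genes past the threshold, with C2-/- at 4.35 to 5.03 and WT at 3.45 to 4.01.

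Relative to Myl12a in the same library, Myl6 was low in every knockout: the log2 ratio per kilobase was -0.71 to -0.51 in WT and -2.41 to -1.97 in C2-/-. With GC correction it was -1.05 to -0.80 in WT and -1.95 to -1.58 in C2-/-, still with no overlap. The smooth muscle markers, Myl9 among them, summed to 202 to 356 CPM in WT and 169 to 244 CPM in C2-/-, and 3 of 7 were past the threshold as lower, against 25% of all genes. After GC correction these 3 differed by -0.40 (Tagln), 0.03 (Myl9) and -0.18 (Smtn). The other 4 were -0.53 to 0.24 on the deposited values and -0.11 to 0.95 after the correction. Their part in the Myl6 value was not tested.

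Mylk2 encodes the skeletal muscle light chain kinase, on chromosome 2 (chr2:152911352-152923068, plus strand). Its level was 10.90, 11.31, 10.54 and 10.86 in WT and 9.45, 9.16 and 9.43 in C2-/-. The highest C2-/- library lay 1.09 log2 units below the lowest WT library. Between genotypes Mylk2 differed by -1.56 (SE 0.20) on the log2 scale, a level 2.94 times higher in WT, and stayed between -1.68 and -1.42 when each library was left out. By level the gene ranked 37 to 61 in WT and 172 to 232 in C2-/-. Its transcript has 57.2% GC, and after GC correction the difference was -0.21 (SE 0.22) with overlapping groups, at 9.79 to 10.65 in WT and 9.88 to 10.25 in C2-/-.

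Mylk4 encodes a kinase of the same family, found in skeletal and heart muscle, on chromosome 13 (chr13:32700834-32783954, minus strand). It was measured at 10.25, 11.05, 10.83 and 12.59 in WT and at 12.25, 11.55 and 12.90 in C2-/-. All C2-/- libraries lay above WT replicates 1 to 3, and WT replicate 4 lay among them. Mylk4 differed by 1.06 (SE 0.50) on the log2 scale. It was 1.53 and past the threshold without WT replicate 4, and -0.36 against WT replicate 4 alone. Its transcript has 44.7% GC, the lowest of the 9 genes, and the GC-corrected difference was 0.50 (SE 0.47).

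The order of the pair of kinases differed between most WT and all C2-/- libraries. On the log2 scale per kilobase, Mylk2 minus Mylk4 was 1.57, 1.18, 0.63 and -0.81 in WT and -1.89, -1.48 and -2.55 in C2-/-. Mylk2 was thus the higher kinase transcript in WT replicates 1 to 3 and the lower in WT replicate 4 and all C2-/- libraries. The groups did not overlap on these values. With GC correction they did, at 0.65, 0.25, -0.44 and -1.17 in WT and -1.16, -0.07 and -1.41 in C2-/-. Mylpf minus Mylk2, the substrate against its kinase, was 3.70 to 4.18 in WT and 4.21 to 4.98 in C2-/-, and the groups overlapped with GC correction, at 4.05 to 4.49 and 3.62 to 4.61.

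**Figure D3:**
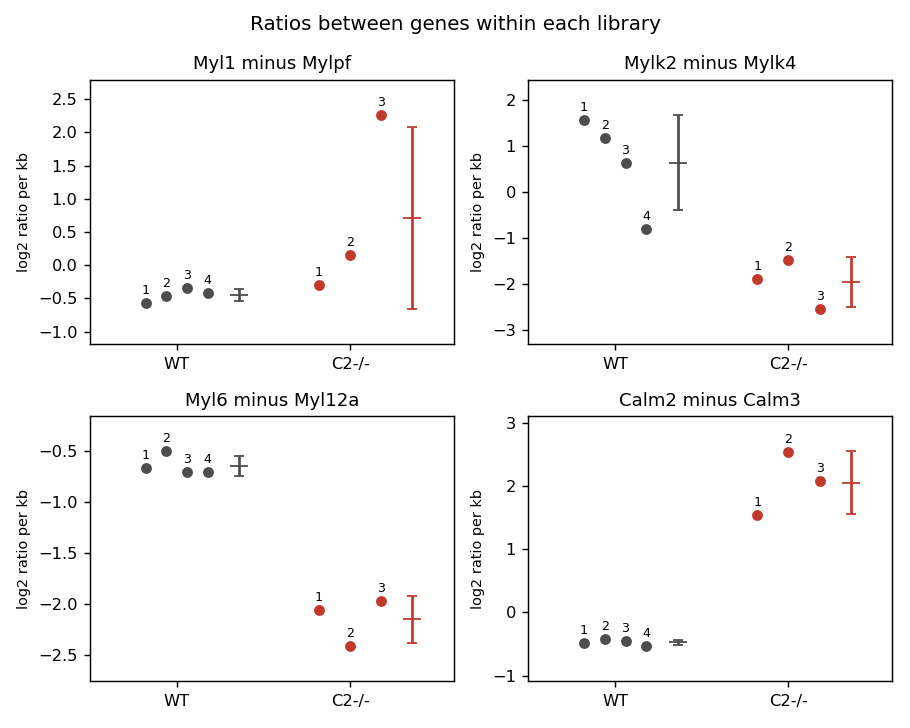
Log2 ratio per kilobase of transcript between genes of the same library, by genotype, with replicate numbers and the mean ± SD, on values without GC correction. Mylk2 minus Mylk4 and Myl6 minus Myl12a are lower in all C2-/- libraries, Calm2 minus Calm3 is higher in all of them, and Myl1 minus Mylpf reaches 2.27 in C2-/- replicate 3. Of these, Myl6 minus Myl12a alone keeps its groups apart with GC correction.

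**Figure D4:**
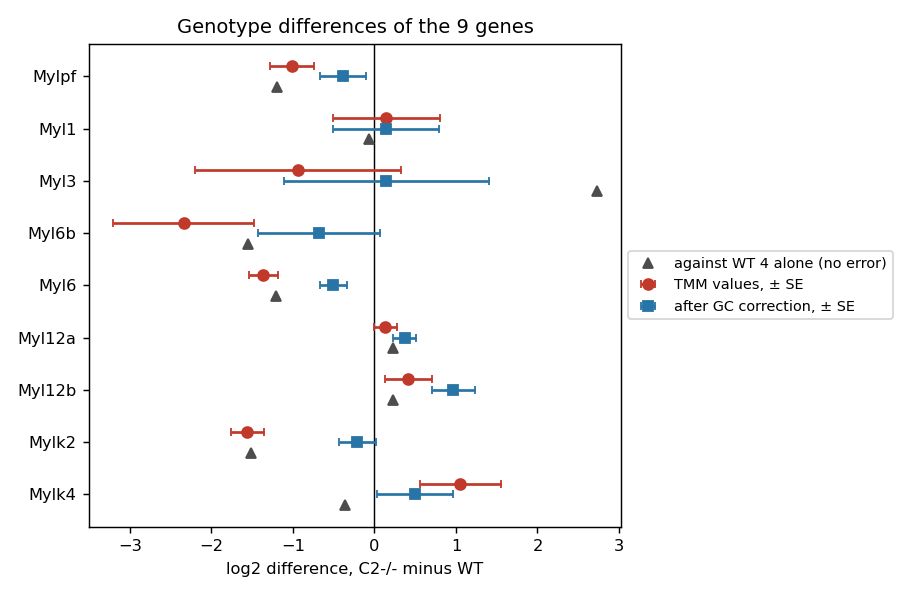
Log2 difference, C2-/- minus WT, of each gene on the deposited values (circles, ± SE), after GC correction (squares, ± SE) and against WT replicate 4 alone (triangles, 1 WT library, no error). Mylk2 moves from -1.56 to -0.21 and Mylpf from -1.01 to -0.39 with the correction, and Myl1, Myl3 and Mylk4 change sign against WT replicate 4.

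Levels were compared between genes per kilobase of the longest coding transcript, a choice that bears on Myl6, which has 15 annotated transcripts. In WT the order was Mylpf (13.30 ± 0.20, SD, n = 4), Myl1 (12.85 ± 0.21), Mylk2 (9.34 ± 0.32), Mylk4 (8.70 ± 0.999), Myl12a (6.16 ± 0.10), Myl6 (5.51 ± 0.11), Myl3 (2.94 ± 2.58), Myl12b (2.80 ± 0.15) and Myl6b (2.26 ± 0.53). Neighbours whose WT values overlapped were Mylk2 with Mylk4, Myl3 with Myl12b, and Myl12b with Myl6b. In C2-/- the order was Myl1 (13.00 ± 1.84, n = 3), Mylpf (12.29 ± 0.52), Mylk4 (9.75 ± 0.67), Mylk2 (7.78 ± 0.16), Myl12a (6.29 ± 0.06), Myl6 (4.14 ± 0.19), Myl12b (3.21 ± 0.51), Myl3 (2.00 ± 1.72) and Myl6b (-0.08 ± 2.07). There Myl1 with Mylpf, Myl12b with Myl3, and Myl3 with Myl6b overlapped.

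As shares of transcripts per kilobase, the fast forms made up nearly all light chain RNA in both genotypes. Myl1 was 98.7% to 99.5% of the 4 essential light chains in WT and 99.3% to 99.9% in C2-/-. Mylpf was 99.0% to 99.4% of the 3 regulatory light chains in WT and 97.6% to 98.9% in C2-/-. Myl12a made up 0.580% to 0.905% of the regulatory pool in WT and 1.05% to 2.21% in C2-/-, with no overlap on these values. The log2 ratio Mylpf minus Myl12a per kilobase was 6.77 to 7.42 in WT and 5.46 to 6.56 in C2-/-, and with GC correction the groups overlapped, at 6.57 to 7.33 and 5.73 to 6.82. The 7 light chain genes together took 1.44% to 1.71% of the reads in WT, 0.846% and 0.746% in C2-/- replicates 1 and 2, and 4.35% in C2-/- replicate 3.

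The other genes of the light chain pathway were divided in direction. Of 37 in the table, 6 rose past the threshold and 12 fell past it, or 48.6% against the 45.2% of all genes, and their median log2 difference was -0.37. After GC correction 7 were past it, against 2508 of 12176 among all genes, and the median was 0.07. These 18 were picked by the threshold, and in all of them the groups did not overlap, against 49.3% of all genes whether past it or not. Their limma adjusted p lay between 0.00032 and 0.030. Of the listed genes, 7 were not analysed here, among them Myl7, Myl10 and the heart kinase Mylk3.

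Calmodulin is the calcium sensor that activates Mylk2. Its gene Calm2 was at 7.32 to 7.69 in WT and 8.40 to 8.55 in C2-/- and rose by 0.995 on the log2 scale (SE 0.15, limma adjusted p = 0.0010). Calm3 was at 8.70 to 9.14 in WT and 6.79 to 7.83 in C2-/- and fell by 1.53 (SE 0.23, adjusted p = 0.0010). The ratio of Calm2 to Calm3 per kilobase was -0.53 to -0.43 in WT and 1.54 to 2.54 in C2-/- on the log2 scale. With GC correction it was -0.11 to 0.82 in WT and 0.66 to 0.86 in C2-/-, and the groups overlapped. The GC content of the transcripts was 42.7% for Calm2 and 58.3% for Calm3, and the GC-corrected differences were 0.21 and -0.05, neither past the threshold.

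Myosin phosphatase removes the phosphate that the kinases add, and of the 9 genes for its subunits and inhibitors 1 rose and 3 fell (44.4%, near the 45.2% of all genes). Its catalytic subunit gene Ppp1cb rose by 1.22 (SE 0.20, adjusted p = 0.0015), from 9.03 to 9.68 in WT to 10.20 to 10.69 in C2-/-, while Ppp1ca, which encodes another catalytic subunit of the same phosphatase family, fell by 1.85 (SE 0.21, adjusted p = 0.00032). The targeting subunit of striated muscle, Ppp1r12b, differed by -1.15 (SE 0.64, adjusted p = 0.16) and was low in all libraries, at most 2.39, with 5, 13 and 3 reads in C2-/-. It was -1.86 (adjusted p = 0.017) and past the threshold without C2-/- replicate 2, -0.46 without C2-/- replicate 3, and -0.66 after GC correction. Ppp1r12c fell by 2.20 (SE 0.32) and the inhibitor gene Ppp1r14b by 2.20 (SE 0.25). After GC correction Ppp1ca was past the threshold at -0.65, but not when C2-/- replicate 3 was also left out (-0.46, adjusted p = 0.061). Ppp1r12a, which encodes another targeting subunit, was past it as lower only after the correction, at -0.95 against 0.17 on the deposited values. Ppp1cb was 0.21, Ppp1r12c -0.29 and Ppp1r14b -0.09.

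Of the 8 other kinases that can act on light chains, 3 rose and 2 fell (62.5%, against 45.2% of all genes). Mylk, the smooth muscle light chain kinase, was at 4.86 to 4.94 in WT and 5.09 to 6.27 in C2-/-, a difference of 0.67 (SE 0.27) that was not past the threshold. It was 0.32 to 0.90 when each library was left out, and it was past the threshold without C2-/- replicate 3, under median centring (0.83) and after GC correction (1.47). Rock1 and Rock2, which promote contraction of non-muscle and smooth muscle cells, rose by 1.78 (SE 0.37) and 1.17 (SE 0.18), and the death-associated kinase Dapk1 by 1.63 (SE 0.49). Dapk3 fell by 2.90 (SE 0.71) and Cdc42bpb by 0.60 (SE 0.20). With 7, 1 and 32 reads in C2-/-, Dapk3 was -1.94 without C2-/- replicate 2 and -3.73 without C2-/- replicate 3, past the threshold both times. Dapk1 was 2.35 after GC correction and past the threshold, Cdc42bpb turned to 0.80 and was past it as higher, and Rock1, Rock2 and Dapk3, at 0.72, 0.24 and -0.94, were no longer past it. With 1 library also left out, Rock1 was past it again at 1.01 without WT replicate 4 (adjusted p = 0.0043), and Dapk3 at -1.76 without C2-/- replicate 3 (adjusted p = 0.029). Cdc42bpb was also not past the threshold under median centring (-0.44), with a pseudocount of 1 (-0.58), or without WT replicate 1, 2 or 3 or C2-/- replicate 3, and Dapk1 not without WT replicate 3 or C2-/- replicate 3.

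Of the 7 sarcomeric heavy chains only Myh8, the perinatal form, was past the threshold (14.3%, against 45.2% of all genes). Myh7 was past it in some alternatives, as given above. Myh8 was at 3.73 to 6.40 in WT and 1.83 to 2.46 in C2-/-. It fell by 2.97 (SE 0.53, adjusted p = 0.0021) and stayed past the threshold after GC correction, at -2.23. The adult heavy chains that carry the fast light chains differed by -0.21 (SE 0.33, adjusted p = 0.61) for Myh4, which turned to 0.22 under quantile normalization, -0.37 (SE 0.36, adjusted p = 0.42) for Myh1 and -0.20 (SE 0.70, adjusted p = 0.83) for Myh2. After GC correction all 3 turned positive, at 0.45, 0.24 and 0.60, and none was past the threshold. When each library was left out Myh1 ranged from -0.67 (without WT replicate 4) to -0.20 (without WT replicate 3) and Myh4 from -0.28 (without C2-/- replicate 3) to -0.10 (without WT replicate 2). Myh2 ranged from -0.89 (without WT replicate 4) to 0.29 (without C2-/- replicate 1) and was also above 0 without WT replicate 1 or 3. Of the 4 non-muscle and smooth muscle heavy chains that Myl6 and Myl12a serve, 2 fell past the threshold (50%, against 25% of all genes as lower and 45.2% either way). Myh9 fell by 0.97 (SE 0.19) and Myh14 by 1.73 (SE 0.29), and after GC correction they were 0.35 and 0.02. Myh10, a non-muscle heavy chain, differed by 0.49 (SE 0.50) with overlapping groups, and the smooth muscle heavy chain Myh11 by 0.24 (SE 0.27). After GC correction Myh10 was 0.91 and Myh11 0.95, the latter past the threshold. Myl9, the smooth muscle regulatory light chain, fell by 1.25 (SE 0.25) and was 0.03 after the correction. Among the chaperones that fold myosin, Unc45b fell by 0.99 (SE 0.15) and Unc45a by 2.26 (SE 0.50), while Hsp90aa1 rose by 1.24 (SE 0.29). After GC correction they were -0.08, -0.74 and 0.57, none past the threshold, though Hsp90aa1 was past it at 0.89 when C2-/- replicate 3 was also left out.

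**Figure D5:**
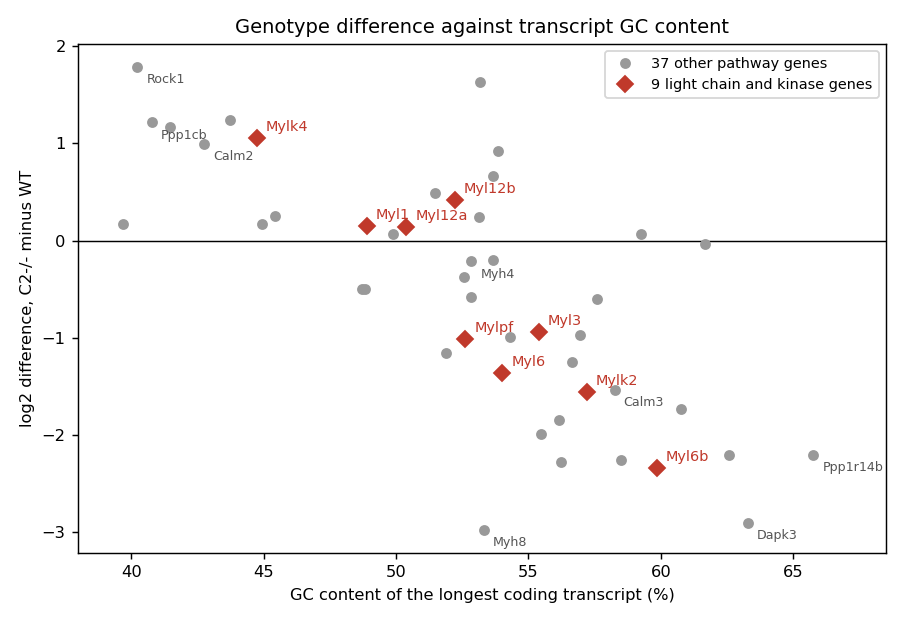
Log2 difference, C2-/- minus WT, against the GC content of the longest coding transcript for the 9 genes (red) and 37 other genes of the pathway (grey). Mylk4 at 44.7% GC is among the higher genes and Myl6b at 59.8% GC among the lower, and Myh8 lies below the other genes of its GC content.

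The genes whose log2 values were most like those of a member over the 7 libraries were also taken from the 3790 genes of at least moderate level. For Mylpf they were Sumf2 (Pearson r = 0.99), Ipo9 (0.99) and Nr4a1 (0.98). For Myl1 they were Fbxo3 (0.98), Ap4s1 (0.97) and Eif3c (0.96), each highest in C2-/- replicate 3. That library lay 0.23 to 0.65 log2 units above the highest WT library in these 3 genes, against 2.05 for Myl1. For Mylk2 they were 9530068E07Rik (0.99), Gpi1 (0.98), which encodes the glycolytic enzyme glucose-6-phosphate isomerase, and Hr (0.98), a nuclear corepressor gene. In all, 133 genes had an r over 0.95 with Mylk2, 25 with Mylpf, 3 with Myl1 and 3 with Myl3. The points share their libraries, genotype, depth and GC trend, whose part in the correlations was not tested.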

How the data were processed

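RNA from TA muscle was selected for poly(A), and libraries were sequenced as DNA nanoballs. Per the study's methods and the submitters' processing notes, the authors aligned reads with HISAT to GRCm38.p6, counted them per gene with featureCounts 1.5.2 and scaled them with edgeR's TMM. The authors deposited log2 values, 1 column per library. A second table held the authors' own limma comparison (fold changes, p-values and test statistics), which was not used. Each deposited log2 value was the log2 of whole reads plus 0.5 over the scaled library size, and 100% of values gave whole reads. The limit that 3 reads set was 0.195 to 0.683 CPM in WT and 0.621 to 1.12 CPM in C2-/-. Such floors cover counting error only.

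Groups followed the sample titles (the design text gives 4 animals per group, and 4 WT and 3 C2-/- libraries were analysed here). The deposited values were fitted with limma 3.58.1 (R 4.3.3, lmFit and eBayes with trend, genotype as the only term, 7 libraries, two-sided), with Benjamini-Hochberg adjustment over 12239 genes. Tested on simulated data of this comparison with 12239 genes, the fit recovered 193 of 200 genes changed by 2 log2 units, with 3 false calls. Smaller changes were not simulated. The simulated reads had the same dispersion for all genes, no GC trend and no differences in library quality beyond depth. The 3 false calls therefore do not give the rate of false calls in the real libraries. GC content and length came from the longest coding transcript of the GENCODE annotation of GRCm38, matched for 12176 genes. GC correction removed from each library a natural spline with 5 degrees of freedom. The genes and lists were chosen with earlier results of these data known. Named were the 9 genes, all pathway genes past the threshold with groups that did not overlap, Myh1, Myh2, Myh4, calmodulin genes, Ppp1cb, Ppp1r12b, and the 3 genes most like Mylpf, Myl1, Myl3 and Mylk2. A gene that the rule names is not reported here. Tnnc2, Fbln1, Tagln, Smtn, Ppp1r12a, Myh7, Myh10, Myh11, Mylk, Atp2a2 and Tpm3 were named after their values were seen. Of the marker lists, endothelial (1 of 7 higher, 1 lower), macrophage (1 of 7 higher, 1 lower), red blood cell (1 of 1 lower), Schwann cell (1 of 4 lower) and adipocyte (1 of 4 higher) lists are not used further. Alternatives were other normalizations, a pseudocount of 1, a filter at a mean log2 value of 3, no trend, voom on the recovered reads, library weights, GC and length correction, leaving out each library, a replicate block and an adjusted p under 0.01.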

Additional observations from a re-analysis of the deposited data

Results flagged for a closer look

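Among the 32 genes examined, the WT values of 6 held 1 library whose gap to the others was above the 95% critical value of Dixon's test for 4 samples (chance gives about 1 in 20), and none of the 9 light chain and kinase genes was among them. WT replicate 4 was the library concerned in 4 of the 6. It was the lowest for Ppp1r12c (3.78, others 4.64 to 4.68), Myh14 (4.85, others 5.73 to 5.84) and Dapk3 (3.31, others 4.16 to 4.31), and the highest for Rock1 (5.47, others 3.88 to 4.10). WT replicate 1 was the lowest for Myh9 (5.78, others 6.12 to 6.17), and WT replicate 2 the highest for Myh4 (15.90, others 15.40 to 15.45). Groups of 3, and so the C2-/- values of Myl1, were not put to this test.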

How the results depend on the processing

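Mylpf, Myl6 and Mylk2 kept their direction in every alternative run. Under the GC corrections none of them was past the threshold, except Myl6 when C2-/- replicate 3 was also left out. Under the other alternatives with a test they stayed past it, except Mylpf at an adjusted p under 0.01. Myl6b was not past it without the trend, under median centring, or without WT replicate 1, 2 or 3 or C2-/- replicate 2. Mylk4 was past it as higher under quantile normalization, library weights and the replicate block, and Myl3 as lower under library weights and the block. The block takes up WT replicate 4, the only library of that number, so its differences are those without WT replicate 4. Library weights were 0.222 for WT replicate 4, 3.74 to 5.71 for the other WT libraries and 0.219 to 0.591 for C2-/-. Neither alternative is thus separate from leaving out WT replicate 4. Under GC correction 2508 genes (1494 higher, 1014 lower), 1 of the 9 genes and 7 pathway genes were past the threshold, and under GC and length correction 2513, 1 and 7. At an adjusted p under 0.01 they were 3216 genes and 2 of the 9. GC corrections that left out a library were added after seeing the data: without C2-/- replicate 3 they gave 2453 genes, 3 of the 9 and 8 pathway genes, and without WT replicate 4 they gave 3129, 1 and 9. The comparison with WT replicate 4 alone and the GC-corrected ratios were also added after seeing the data. Leaving out each library gave 4095 to 6136 genes, 3 to 5 of the 9 and 16 to 21 pathway genes. The replicate block gave 5901 genes, 6 of the 9 and 21 pathway genes. Log2 deviations from the group means correlated at 0.057, -0.11 and -0.083 between same-numbered libraries, and at -0.17 to 0.19 between differently numbered ones. So few libraries cannot show whether samples were paired, and the fit used no pairing. GC content is a property of the transcript, and which part of the GC trend is technical was not tested.

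Named pathway genes past the threshold changed direction only under the GC corrections. Under GC correction Myh14 was 0.023, Myh9 0.35, Cdc42bpb 0.80 and Myl9 0.026. Under GC and length correction Calm2 was -0.010, Calm3 0.0021, Unc45b 0.0064, Myh14 0.077, Myh9 0.37 and Cdc42bpb 0.83. Under GC correction without C2-/- replicate 3 Myh14 was 0.19, Myh9 0.34, Cdc42bpb 0.87 and Myl9 0.27. Under GC correction without WT replicate 4 Calm3 was 0.16, Ppp1r14b 0.0014, Myh9 0.49, Cdc42bpb 0.85 and Myl9 0.085. The replicate block left Dapk1 at 1.39 and not past the threshold, and median centring and a pseudocount of 1 left Cdc42bpb at -0.44 and -0.58 and not past it.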
